A study of Caenorhabditis elegans with 2 samples.

Results

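The regions described here are 593 strong chromatin immunoprecipitation peaks on the 5 autosomes of Caenorhabditis elegans whose summits lay no more than 500 bp from the annotated 5′ end of a protein-coding gene. They were taken from the 30000 peaks called on both replicates pooled. Peaks were ranked by the authors' signal value, the strongest 3000 were kept, and summits within 250 bp of a tRNA, snRNA, snoRNA, miRNA, rRNA or spliced-leader gene were set aside. Of the 3000, 2307 were autosomal and 2036 of those lay away from the short RNA genes. The 593 regions made up 29.1% of these 2036, while 19.6% of the autosomal bases away from short RNA genes lay within 500 bp of a 5′ end. Signal and position chose the regions, so their signal and their distance to a 5′ end are given as descriptions. The other strong autosomal peaks away from short RNA genes and from 5′ ends, 1443 in number, served for comparison. They comprised 625 peaks in coding exons, 366 in introns, 360 between genes, 17 in 5′ untranslated regions and 75 in 3′ untranslated regions.

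Chromatin came from whole animals of strain OP757, which carries the mutation unc-119(tm4063) and the transgene wgls757, an F57A8.1::TY1::EGFP::3xFLAG fusion with a functional unc-119 copy. Animals had been synchronised as starved L1 larvae after bleaching and were collected as young adults of 65 hours, with males and females pooled. The fusion protein was precipitated through its GFP moiety from 2 biological replicates of this 1 group, and no other strain, age or condition was compared. All cells of the animal contributed, so a peak cannot be assigned to a tissue. The labels name no promoter for the fusion and give no number of independent lines.

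A promoter is the stretch of DNA next to the start of a gene at which RNA polymerase and its factors assemble. In C. elegans many messenger RNAs are trimmed and joined to a spliced leader soon after they are made, and some genes are transcribed together as operons. An annotated 5′ end therefore often marks the trimmed end of the transcript, and the start of transcription lies further upstream. Chromatin immunoprecipitation records DNA close to the tagged protein, whether the protein touches DNA itself or is held by others.

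Of the 9 sequences printed here, the first group comes from the strongest regions, all at genes of large-subunit ribosomal proteins. Each is the 101 bases centred on the summit, on the strand of the gene, 5′ to 3′, in ce11 coordinates with the sequence from RefSeq's WBcel235 assembly. The windows are chrIV:654849-654949 on the minus strand for rpl-15, chrIII:7854619-7854719 on the plus strand for rpl-35 and chrIII:3867515-3867615 on the plus strand for rpl-3. Capitals mark AGCGTGTTT, the run of 9 bases that these 3 windows share.
rpl-15: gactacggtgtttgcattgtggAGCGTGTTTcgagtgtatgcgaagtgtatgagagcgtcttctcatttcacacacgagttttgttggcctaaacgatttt
rpl-35: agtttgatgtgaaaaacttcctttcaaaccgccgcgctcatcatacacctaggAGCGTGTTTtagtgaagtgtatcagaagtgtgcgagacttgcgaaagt
rpl-3: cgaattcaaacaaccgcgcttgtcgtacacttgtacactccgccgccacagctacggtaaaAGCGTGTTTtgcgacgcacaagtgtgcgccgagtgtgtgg

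The run was found by comparing these windows, so its presence in them is no finding. Of the 10 upstream windows of ribosomal protein genes, only these 3 held it on either strand. It was in 0 of the 25 downstream windows of ribosomal protein genes. At other genes it was in 1 of the 255 upstream windows and in 2 of the 303 downstream windows. None of the 1443 other strong peaks held it. Within the 500 bases before the 5′ end it was in 3 of the 30 ribosomal protein genes with a region, which are these genes, in 1 of the 49 without one, and in 0.571% of other autosomal genes.

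The second group shows upstream summits that hold ACGCAG or GCGCGC, the short sequences followed below. They were the strongest 6 among upstream windows on chromosomes II to V with no annotated untranslated region, of which 32 of 158 held either sequence. Capitals mark ACGCAG on either strand, read as CTGCGT on the reverse, and GCGCGC. The windows are chrIII:1619103-1619203 (minus) at Y22D7AL.10, chrIII:13643716-13643816 (plus) at set-16, chrII:14154467-14154567 (minus) at Y48B6A.1, chrV:8835-8935 (minus) at B0348.10, chrV:8545796-8545896 (minus) at slc-17.8 and chrII:11759458-11759558 (plus) at F44E5.5.
Y22D7AL.10: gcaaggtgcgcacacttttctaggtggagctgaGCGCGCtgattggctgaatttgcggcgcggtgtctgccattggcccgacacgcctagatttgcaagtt
set-16: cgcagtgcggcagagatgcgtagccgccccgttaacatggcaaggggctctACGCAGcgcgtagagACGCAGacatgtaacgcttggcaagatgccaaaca
Y48B6A.1: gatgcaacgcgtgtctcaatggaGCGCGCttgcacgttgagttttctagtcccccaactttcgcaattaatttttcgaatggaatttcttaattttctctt
B0348.10: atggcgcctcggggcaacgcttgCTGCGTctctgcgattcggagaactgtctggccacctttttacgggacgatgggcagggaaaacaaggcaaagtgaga
slc-17.8: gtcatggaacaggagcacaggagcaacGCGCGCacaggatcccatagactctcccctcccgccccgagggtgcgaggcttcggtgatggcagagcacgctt
F44E5.5: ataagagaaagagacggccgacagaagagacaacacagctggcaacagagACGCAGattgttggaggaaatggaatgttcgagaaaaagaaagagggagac

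The highest pooled signal, 205 in the authors' units, was at rpl-15, which encodes ribosomal protein eL15. Its signal was 87 in replicate 1 and 115 in replicate 2, and the summit lay 323 bp upstream of the 5′ end, between rpl-15 and the divergent gene K11H12.8. At rpl-35, for protein uL29, pooled signal was 165, with 65.3 in replicate 1 and 99.3 in replicate 2, 465 bp upstream. At rpl-3, for protein uL3, it was 151, with 67.1 in replicate 1 and 94.4 in replicate 2, 289 bp upstream. All 3 summits were between genes, and in both replicates they ranked among the 54 strongest peaks of the whole list. The 25 strongest regions were nearest to 25 different genes.

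Next came Y17G9B.5, whose product RefSeq names as a homologue of a mitochondrial signalling intermediate of the Toll pathway, with pooled signal 144. Its signal was 69.7 in replicate 1 and 71.1 in replicate 2. The summit lay 162 bp upstream, between this gene and the divergent rpl-20, so the nearest gene need not be the one concerned. At cdc-48.1, which encodes the ATPase that extracts proteins for degradation, pooled signal was 143, with 76.6 in replicate 1 and 80.7 in replicate 2. At both regions the signal values of the replicates were close, though their scaling is unknown. Ranks in replicates 1 and 2 were 45 and 106 at Y17G9B.5, and 31 and 66 at cdc-48.1.

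At ntl-2, for a subunit of the CCR4-NOT complex that shortens messenger RNA tails, pooled signal was 139, with 51 in replicate 1 and 82.6 in replicate 2. At Y22D7AL.10, for the mitochondrial 10 kDa heat shock protein, it was 138, with 49.9 in replicate 1 and 77.7 in replicate 2. At wip-1, an actin regulator with a WH2 domain, it was 135, with 58.5 in replicate 1 and 76.5 in replicate 2. These summits were 450, 224 and 311 bp upstream and between genes. At mdt-26, for a subunit of the Mediator complex that links factors to RNA polymerase II, the summit was 194 bp downstream in an intron, with pooled signal 137, replicate 1 at 79.5 and replicate 2 at 69.4.

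The other 16 of the 25 strongest regions had pooled signal between 97.2 and 118.9. They lay nearest to K10D2.5, pcrg-1, eel-1 (a ubiquitin ligase), set-16 (a histone H3 lysine methyltransferase), F10E9.7, D2096.7, hsr-9, Y39B6A.43, fbxb-72, his-59 (histone H3), enpl-1 (a chaperone of the endoplasmic reticulum), wwp-1 (a ubiquitin ligase), kel-3, prmt-5 (a protein arginine methyltransferase), Y48B6A.1 (the ribosome biogenesis protein BOP1) and rps-16. Of these 16 summits, those at set-16, F10E9.7 and hsr-9 were between divergent genes. The neighbour was drr-2 at set-16, F10E9.5 at F10E9.7 and the ribosomal protein gene rps-19 at hsr-9.

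Across all 593 regions pooled signal ran from 52.8 to 205, with quartiles of 56.2 and 70.2 and a median of 61.6. The median was 58.9 at the coding-exon peaks, 59.0 at the intron peaks and 59.4 at the intergenic peaks set beside them. The deposited −log10 q had a median of 0.959 and a range of 0.602 to 2.51, and 14 regions were at the maximum. Only the strongest 295 pooled peaks passed the authors' threshold on irreproducible discovery, and 57 regions (9.61%) were among them, near the 9.83% of all 3000 strong peaks. The shares were 2.56% for coding-exon peaks, 6.56% for intron peaks and 6.39% for intergenic peaks.

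The rank limit fell within a continuum. Just inside it were the regions at nhr-248 with signal 52.8, plc-2 with 52.8 and ant-1.1 with 52.8. Just outside were peaks at spt-4 with signal 52.7, B0334.5 with 52.7 and angl-1 with 52.7.

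A summit of both replicates lay within 100 bp of 429 regions (72.3%, 95% Wilson interval 68.6 to 75.8%), as at 72.4% of all 3000 strong peaks. The pooled list was made from both replicates, so this is not an independent check, and intervals on shares cover counting error only because read depth is unknown. Replicate 1 alone had a summit at 59 regions, replicate 2 alone at 100, and neither at 5, which were the regions at T24D1.3, prx-2, ani-2, B0554.1 and ZK688.5, named after their values were seen. Replicate 1 signal had a median of 29.9 over 488 regions (range 14.6 to 87). Replicate 2 signal had a median of 35.2 over 529 regions (range 16.6 to 115). A summit within each replicate's own 3000 strongest peaks was there for 103 regions (17.4%), against 17% of all 3000.

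Over the 429 regions the signals of the replicates had Pearson r = 0.196 and Spearman rho = -0.0948. Both replicates entered the pooled value on which the regions were selected, and that selection shapes this relation. Among the 57 regions that passed the threshold, 53 had a summit of both replicates, and 44 had one in both replicates' own 3000. The other 536 regions had both summits at 376 (70.1%) and both among the strongest at 59 (11%).

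**Figure D1:**
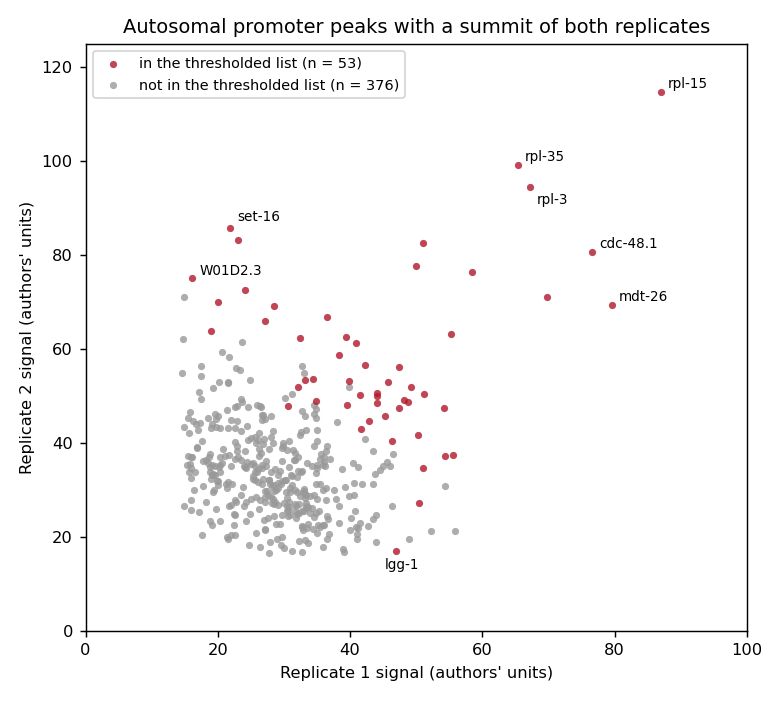
Signal of replicate 1 (x axis) and replicate 2 (y axis), both in the authors' units, for the 429 regions with a summit of each replicate within 100 bp, in red for the 53 in the thresholded list and in grey for the 376 others. The ribosomal protein genes rpl-15, rpl-35 and rpl-3 stand at the upper right with cdc-48.1 and mdt-26, while set-16 and W01D2.3 are high in replicate 2 and low in replicate 1.

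Some regions that passed the threshold rested mostly on 1 replicate. At W01D2.3, for a receptor expression-enhancing protein, signal was 16.1 in replicate 1 and 75.1 in replicate 2, ranks 23526 and 88 in their lists. At set-16 it was 21.9 in replicate 1 and 85.7 in replicate 2, and at D2096.7 it was 23.1 and 83.3. At iff-2, for translation factor eIF5A, it was 19.0 in replicate 1 and 63.9 in replicate 2, and at cox-5B, a subunit of cytochrome c oxidase, 20.1 and 70.1. In replicate 1 their ranks ran from 7736 at D2096.7 to 23526 at W01D2.3, and in replicate 2 all 5 were among the strongest 143.

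The opposite was seen at lgg-1, for the ubiquitin-like protein that marks autophagosomes, with 46.9 in replicate 1 and 17 in replicate 2. Replicate 1 was also ahead at B0348.10 (50.4 and 27.3), R151.2 (51.1 and 34.7), enpl-1 (54.4 and 37.3) and F40F11.3 (55.6 and 37.5). At rps-16 the stronger of the overlapping peaks had 58.5 in replicate 1 and no summit of replicate 2 within 100 bp. The other peak at rps-16 had 47.4 in replicate 1 and 56.2 in replicate 2, so replicate 2 did have a summit at this gene.

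When the same rule was applied to each replicate's own list, replicate 1 gave 597 regions and replicate 2 gave 592. Their nearest genes numbered 581 in each case, as they did in the pooled list, which is 3.37% of autosomal protein-coding genes. The genes common to both replicates numbered 129, or 22.2% of either. Of the pooled regions' 581 genes, 118 were found by both replicates alone, and 99 by neither. Of the 56 genes at thresholded regions, 44 were found by both. Most of the genes at regions below the threshold were therefore not recovered by both replicates on their own. The threshold was set on these same replicates, so selection shapes the contrast with the thresholded regions.

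The summits lay on both sides of the 5′ end. Of the 593, 265 (44.7%, interval 40.7 to 48.7%) were upstream and 328 downstream, while 47.5% of the eligible bases within 500 bp of a 5′ end were upstream. The median position was 50 bp downstream, with quartiles 172 bp upstream (-172) and 273 bp downstream. The label of promoter rests on this distance alone: 212 summits (35.8%) were in coding exons, 220 (37.1%) between genes, 101 in introns, 35 in 5′ untranslated regions and 25 in 3′ untranslated regions. All 220 intergenic summits were upstream, and 202 of the 212 coding-exon summits were downstream, as their positions dictate.

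Regions that passed the threshold sat further upstream. Of these 57, 35 (61.4%, interval 48.4 to 72.9%) were upstream, with a median position of -92 bp, against 230 of the 536 others (42.9%, interval 38.8 to 47.1%). The largest number per 100 bp among the 57 was 11, between 200 and 100 bp upstream. Among the others it was 69, between 300 and 400 bp downstream.

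**Figure D2:**
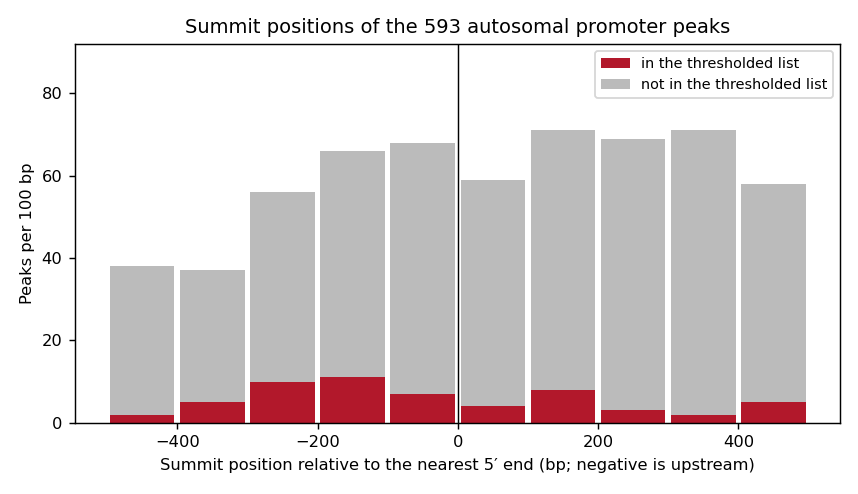
Number of regions per 100 bp (y axis) by summit position relative to the nearest annotated 5′ end in bp (x axis, negative is upstream), with the 57 in the thresholded list in red under the 536 others in grey. The red bars are highest between 300 and 100 bp upstream, and the grey bars are spread over both sides.

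The share of summits near a 5′ end, and the side they were on, changed with rank. Of autosomal peaks away from short RNA genes, 57 of 124 at ranks 1 to 300 had a 5′ end within 500 bp (46.0%, interval 37.4 to 54.7%). The share was 34.9% at ranks 301 to 1000, 27.4% at 1001 to 2000 and 24.4% at 2001 to 3000. Beyond the limit it was 22.9% at ranks 3001 to 10000 and 22.8% at 10001 to 30000, still above the 19.6% of bases. Upstream summits were 61.4% of those near a 5′ end in the first band, then 46.9%, 45.3% and 37%, and 37.3% and 39.1% beyond the limit. The weaker regions were thus on the side of the gene body more often than the strongest ones. Ranks 1 to 300 held the same 57 regions as the thresholded list.

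**Figure D3:**
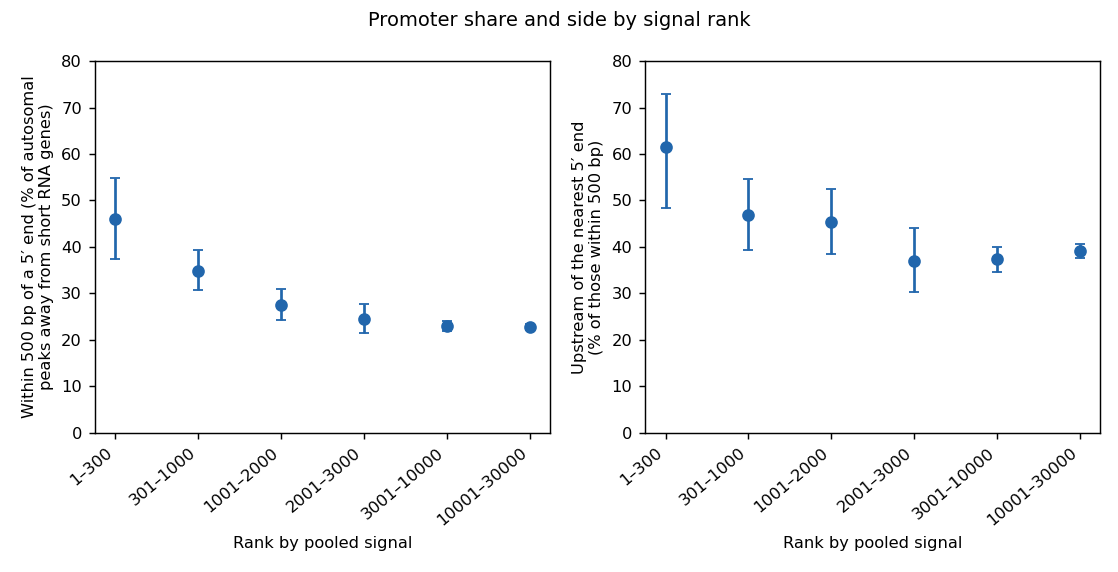
Left, percent of autosomal peaks away from short RNA genes whose summit had a protein-coding 5′ end within 500 bp, and right, percent of those that lay upstream, by rank of pooled signal, with 95% Wilson intervals. Both shares are highest at ranks 1 to 300, at 46.0% and 61.4%.

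Another 5′ end lay within 500 bp of the summit at 78 regions. At 40 of these, 15.1% of the upstream regions, the summit was between divergent genes. For these the assignment to the nearest gene is uncertain. Divergent genes whose 5′ end lay over 500 bp from the summit were not counted, so more summits may lie between divergent genes. A gene ending on the same strand within 500 bp upstream, the arrangement found in operons, was present at 24.1% of the 581 genes with a region (interval 20.8 to 27.7%) and at 19.4% of all autosomal protein-coding genes. Upstream regions had it at 27.7% of their genes (interval 22.6 to 33.3%) and downstream regions at 20.9% (interval 16.9 to 25.7%).

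The 581 genes were 3.37% of the 17242 autosomal protein-coding genes. By chromosome, genes with a region were 4.03% on I, 3.71% on II, 4.05% on III, 2.86% on IV and 2.72% on V. The middle one of 3 equal parts of a chromosome, where conserved and widely expressed genes are concentrated in this species, held 261 regions (44.0%, interval 40.1 to 48.0%). It held 32.8% of the other strong peaks and 38.1% of all autosomal protein-coding 5′ ends. A genetic name, as opposed to a sequence name, was carried by 66.8% of the genes with a region and by 55.4% of all.

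Genes with a region were counted in 30 lists chosen by name. The share was highest for cytosolic ribosomal proteins, with 30 of 79 autosomal genes (38.0%, interval 28.1 to 49%), beside the 3.37% of all genes. They had 35 regions, 10 upstream and 25 downstream, of which 9 were in the thresholded list. Only 10.1% of the ribosomal protein genes had one when the 5′ end had to be within 250 bp, against 1.91% of all genes. The list includes rpl-24.2, which RefSeq names as a ribosome biogenesis protein.

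The other ribosomal regions, upstream as well as downstream, were weaker than those at rpl-15, rpl-35 and rpl-3. The strongest of the other upstream ones, at rpl-24.2, had pooled signal 90.8, below both downstream summits at rps-16. At rps-16, for protein uS9, a pair of overlapping peaks had their summits 411 and 201 bp downstream in a coding exon, with pooled signal 97.2 and 93.7. At rps-1, for protein eS1, the stronger summit was 472 bp downstream with signal 46.4 in replicate 1 and 40.5 in replicate 2, and the weaker one was 306 bp upstream with pooled signal 64.4. At rps-24 they were 281 bp downstream with 33.0 in replicate 1 and 30.1 in replicate 2, and 417 bp upstream with 34.9 and 20.9. At rpl-16 they were 486 bp downstream with 30.5 and 38.4, and 326 bp upstream with no summit of replicate 1 within 100 bp and 26.5 in replicate 2. Ribosomal protein genes with regions in either replicate's own list numbered 27 for replicate 1 and 30 for replicate 2, and 14 were in both.

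Of translation factors, 5 of 40 genes (12.5%, interval 5.46 to 26.1%) had a region. The strongest was at iff-2, 47 bp upstream, with pooled signal 89.6. At eef-1B.1, an elongation factor subunit, summits lay 442 bp downstream (signal 42.8 in replicate 1 and 22.4 in replicate 2) and 122 bp upstream (32.6 in replicate 1 and no summit of replicate 2 within 100 bp). At eif-3.C, an initiation factor subunit, signal was 20.3 in replicate 1 and 43.3 in replicate 2. At ife-1, a cap-binding protein, it was 39.3 and 30.7. Of the aminoacyl-tRNA synthetases, which charge tRNAs with amino acids, 2 of 31 had a region: ears-2, where the summit was on the 5′ end itself with pooled signal 96.3, and kars-1, with 59.0. None of 33 genes for ribosome biogenesis and the nucleolus in the list had one (upper limit of the interval 10.4%), although Y48B6A.1, a BOP1 homologue without a genetic name and so outside the list, did.

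Among genes of the proteasome and ubiquitin, which mark and degrade proteins, 14 of 78 (17.9%, interval 11 to 27.9%) had a region, with 4 summits upstream and 11 downstream. At pbs-6, a proteasome subunit, pooled signal was 94.1, with 41.7 in replicate 1 and 43.0 in replicate 2. At ubc-6, a ubiquitin-conjugating enzyme, it was 90.3, with 48.8 in both replicates, 312 bp upstream, and a weaker summit lay 455 bp downstream. The next were rpn-11, with 83.8, and pbs-7, with 79.3.

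Chaperones had 10 of 68 genes (14.7%, interval 8.19 to 25%) with a region. Pooled signal was 100.1 at enpl-1, 97 at dnj-9, 87 at dnj-13 and 71.1 at hsp-1. At dnj-9 the replicates were apart, with 27.1 in replicate 1 and 65.9 in replicate 2, and at dnj-13 they were closer, with 50.3 and 41.7. F44E5.5, an hsp70 gene shown above for its sequence, lies opposite the near-identical copy F44E5.4, and signal there, 87.3, cannot be assigned to either.

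**Figure D4:**
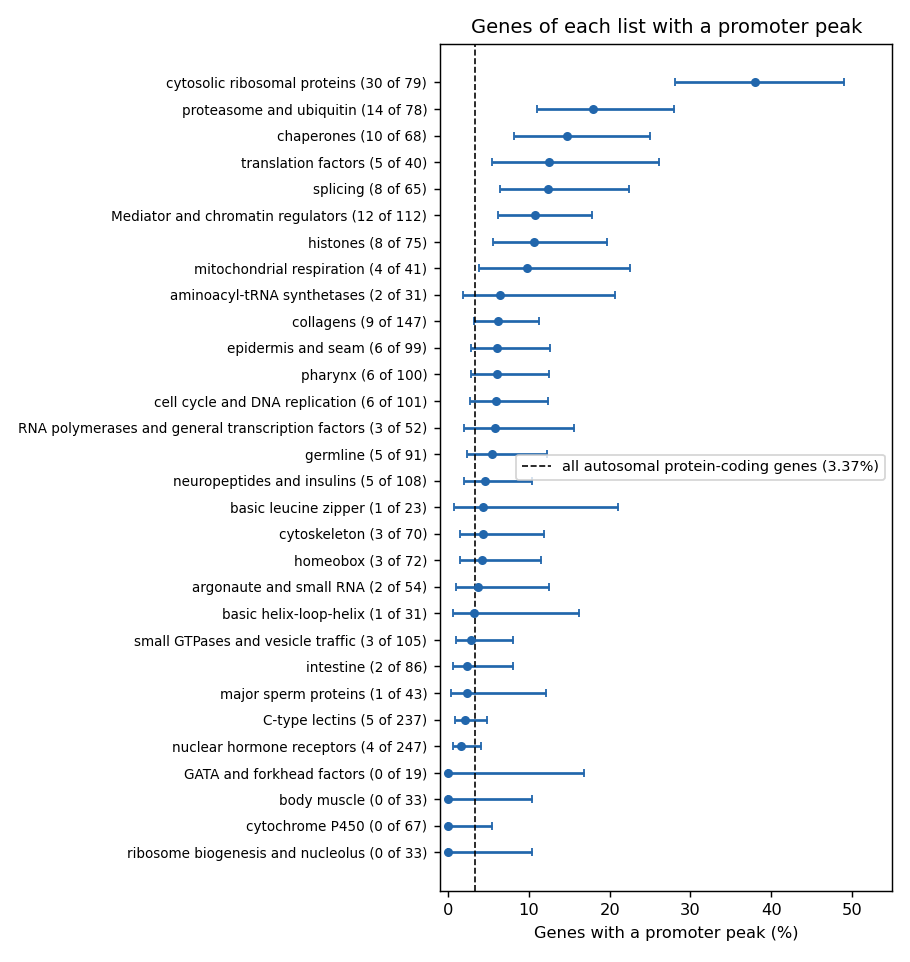
Percent of the autosomal genes of each of 30 name lists with a region (x axis, points with 95% Wilson intervals), with the number of genes beside each name. The dashed line is the 3.37% of all autosomal protein-coding genes, and ribosomal proteins stand furthest from it at 38.0%.

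Splicing genes had 8 of 65 (12.3%, interval 6.37 to 22.5%), led by snrp-200, the U5 helicase, with pooled signal 92.3, and by rsp-1 with 73.1, hrpa-1 with 72.7 and prp-39 with 72.4. At snrp-200 and prp-39 replicate 1 had no summit within 100 bp. Mediator and chromatin regulators had 12 genes with a region (10.7% of the list, interval 6.24 to 17.8%), with mdt-26 and set-16 followed by set-4 with 76.9 and lin-53, a histone-binding protein, with 68.6. The 12 were caught by name and include metr-1, which RefSeq names as a putative methionine synthase. Histones had 8 of 75 (10.7%, interval 5.50 to 19.7%), where 6 of the 8 summits were downstream. Histone genes exist as many near-identical copies, so reads could have been divided or misplaced among them. The largest subunit of RNA polymerase II, encoded by ama-1, had a region 330 bp upstream with 36.1 in replicate 1 and 37 in replicate 2, 1 of 3 among 52 genes of RNA polymerases and general factors.

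Respiratory genes had 4 of 41 (9.76%, interval 3.86 to 22.5%), namely cox-5B, atp-1, atp-2 and atp-3. Replicate 1 had no summit within 100 bp of the pooled one at atp-2 or atp-3. Genes of the cell cycle and DNA replication had 6 of 101 (5.94%, interval 2.75 to 12.4%), and all 6 summits were upstream. They included cdc-48.1, knl-3 of the kinetochore with pooled signal 84.5, pcn-1, the sliding clamp of DNA replication, with 70.6, and cdc-48.2 with 62.5.

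Tissue lists lay closer to the share of all genes. Germline genes had 5 of 91 (5.49%, interval 2.37 to 12.2%), led by htp-1, a protein of meiotic chromosomes, and oma-2 and gld-1, regulators of germ cell messages, with pooled signals of 74.3, 70.4 and 65.2. Collagens of the cuticle had 9 of 147 (6.12%, interval 3.25 to 11.2%), 8 of them downstream, led by col-34 with 73.7 and col-149 with 72.1. The pharynx list had 6 of 100, of which pqn-59, pqn-63 and pqn-74 are named for their sequence and not for a tissue. Epidermis and seam had 6 of 99, including dpy-26, a condensin subunit, and dpy-30, a dosage compensation protein that is also among the chromatin regulators. Neuropeptides and insulins had 5 (4.63% of the list), intestine 2 of 86 and body muscle 0 of 33 (upper limit 10.4%).

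Transcription factor families and some large families had few. Nuclear hormone receptors had 4 of 247 (1.62%, interval 0.632 to 4.09%), C-type lectins 5 of 237 (2.11%), homeobox genes 3 of 72, and GATA and forkhead factors 0 of 19 (upper limit 16.8%). Cytochrome P450 genes had 0 of 67 (upper limit 5.42%). The intervals lay wholly above 3.37% for ribosomal proteins, the proteasome and ubiquitin, chaperones, translation factors, splicing, Mediator and chromatin regulators, histones and respiration, and included it for the other lists. Each replicate's own list gave a region to 3.37% of autosomal protein-coding genes, and 129 of the 17242 had one in both. Ribosomal proteins had a region in both for 14 of 79 genes, the proteasome and ubiquitin for 4 of 78 and chaperones for 4 of 68. Histones had 3 of 75, respiration 3 of 41, translation factors 1 of 40 and splicing 1 of 65, and Mediator and chromatin regulators had 2 genes. All of these were fewer than in the pooled list, as for all genes, of which 581 had a region in the pooled list. The lists are of names, the regions were chosen on signal, and no test was made.

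G and C were more frequent at the summits than in the DNA beside them. GC content was 45.4 ± 9.44% (SD over 593 regions) within 50 bp of summits, and 37.5 ± 6.24% in windows of the same length centred 400 bp to either side. It was higher at the summit for 445 regions (75%). Regions in the thresholded list had 48.0% at summits and 36.9% beside, upstream regions 44.6% and 37.1%, and downstream regions 46.1% and 37.9%. Other strong peaks showed the same feature, with 48.5% and 39.3% at coding-exon peaks, 46.3% and 38.4% at intron peaks, and 46.3% and 34.9% at intergenic peaks.

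All 2080 sequences of 6 bases were compared, counting each together with its reverse complement and overlaps included. A sequence was called where at least 5% of summit windows held it and it was over 2 times as frequent there as beside. Of them 69 (3.32%) were called over all regions, 135 (6.49%) over upstream regions and 92 (4.42%) over downstream regions. Of the upstream and downstream sets, 16 sequences were common to both sides, 11.9% of the upstream set, where 4.42% of all were called downstream, and 17.4% of the downstream set, where 6.49% of all were called upstream. The count of 69 depends on the settings: it was 23 in replicate 1's own list, 3 with windows of 25 bp either side, 19 at ranks 1 to 6000 and 115 at ranks 1 to 1500. The upstream set held the dinucleotide CG in 88 of 135 (65.2%) and the downstream set in 36 of 92 (39.1%), where 29.0% of all 6-base sequences hold it. Since no correction for GC content was made, many called sequences can follow from it.

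Upstream summits held CG-rich sequences that were rare beside them, and intron and intergenic peaks shared some of these. GCGCGC was in 7.55% of the 265 upstream windows (interval 4.94 to 11.4%) and 0.189% of those beside, and in 1.22% of downstream windows against 1.07% beside. At intron peaks it was in 3.83% against 0.820% beside, and at intergenic peaks in 4.17% against 0.694%. ACGCGC and GCGCAC were each in 11.7% of upstream windows and 0.943% beside. GCGCAC was in 5.46% of intron peaks against 0.956% beside and in 6.94% of intergenic peaks against 1.53%. For ACGCGC the difference was smaller, with 3.55% of intron peaks against 1.64% beside and 3.06% of intergenic peaks against 1.53%. ACGCAG was in 31 of 265 (11.7%, interval 8.36 to 16.1%) and 1.13% beside. GACGCA was in 13.2% and 1.51%, and CGCAGA in 12.1% and 1.89%. The last 3 overlap in the 8-base run GACGCAGA, which was in 4.91% of upstream windows and 0.189% beside, so they are not separate observations.

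ACGCAG was in 3.96% of downstream windows against 2.44% beside and in 2.88% at coding-exon peaks against 2.40%. At intron peaks it was in 7.10% (interval 4.89 to 10.2%) against 1.91% beside, and at intergenic peaks in 7.22% (interval 4.98 to 10.4%) against 1.81%. These intervals overlap that of the upstream regions, and the difference was not tested. At weak upstream peaks of ranks above 20000, of which there were 713, it was in 4.49% (interval 3.20 to 6.27%) against 1.82% beside. In the thresholded regions it was in 10 of 57 (17.5%, interval 9.82 to 29.4%). In replicate 1's own upstream regions it was in 7.66% against 1.92% beside, and in replicate 2's own in 11.4% against 1.90%. From 250 bases before to 50 after the 5′ end, ACGCAG was held by 17.4% of genes with an upstream region and 8.31% of those with a downstream one, against 8.40% of all autosomal genes. For GCGCGC the shares were 11.7% with an upstream region and 6.46% with a downstream one, against 3.62% of all autosomal genes. The stretch around the 5′ end takes in the summit windows of some upstream regions, so some matches were counted in both. All these matches are descriptions of sequence and show no binding site.

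**Figure D5:**
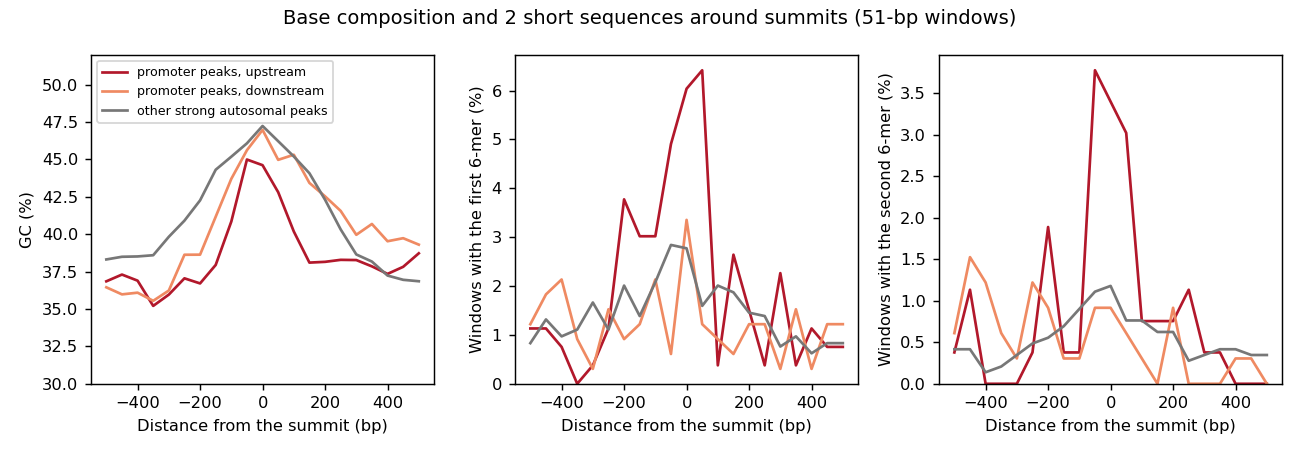
GC content (left), and the percent of 51-bp windows holding ACGCAG (middle) and GCGCGC (right), by distance from the summit in bp, in steps of 50 bp and oriented on the strand of the nearest gene, for upstream and downstream regions and other strong autosomal peaks. All groups rise in GC at the summit, while the short sequences reach their highest plotted shares in upstream regions within 50 bp of it, 6.42% for ACGCAG and 3.77% for GCGCGC.

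Repeats of GA were also more frequent at upstream summits than beside, while runs of A were less frequent. GAGAGA was in 18.9% of upstream windows (interval 14.6 to 24.0%) and 8.30% beside. In the thresholded regions, upstream and downstream together, it was in only 4 of 57 (7.02%, interval 2.76 to 16.7%) against 5.26% beside. GAGAGA was in 6.40% of downstream windows against 5.18% beside, in 16.7% at intron peaks against 5.46%, and in 16.9% at intergenic peaks against 5.83%. AAAAAA was less frequent at summits than beside, in 17.5% and 36.5% of windows, as was TATAAA, the core of the TATA box, in 6.75% and 11.6%. The same held at other strong peaks. AAAAAA was in 5.76% of coding-exon peaks against 29.8% beside, in 19.4% of intron peaks against 37.7% and in 19.2% of intergenic peaks against 46.4%. For TATAAA the shares were 2.4% against 8%, 4.37% against 7.38% and 5.28% against 11.25%, in the same order. The E-box core CACGTG was in 2.53% of windows and 1.94% beside, and the AP-1 site TGACTCA in 0.506% and 0.675%. In downstream regions the highest ratios among called sequences were those of CCCAGC, in 6.71% against 1.37% beside, and GCGGCC, in 5.18% against 1.22%. At coding-exon peaks CCCAGC was in 4.80% against 2.08% beside and GCGGCC in 3.68% against 1.68%.

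The gene of the tagged protein had no region of its own. The only pooled summit within 500 bp of the 5′ end of F57A8.1 was 104 bp from it and ranked 3793, outside the limit, with pooled signal 50.01. Replicate 2 had a signal of 33.4 there, and replicate 1 had no summit within 100 bp. There was no pooled summit within 500 bp of unc-119, whose functional copy the transgene carries.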

How the data were processed

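Chromatin immunoprecipitation with an antibody against GFP was sequenced from 2 biological replicates of 1 group, per the labels. The authors deposited 4 peak lists on ce11: 1 for each replicate, 1 for both pooled, and 1 after a threshold on irreproducible discovery, derived from the other lists, per the deposited descriptions. Each peak holds the authors' signal value and a deposited −log10 q. Caller, aligner, filters, the nature of the control, scaling and read depth were not given in the sources used here, and they can affect signal, rank and which peaks passed. Signal was used to rank and describe peaks within a list, and beside each other for the replicates.

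The members and the lists of genes and sequences were chosen with earlier results of these data known. Summits were assigned to the nearest protein-coding 5′ end of Ensembl release 115 on WBcel235, the ce11 sequence, and located in the order coding exon, 5′ untranslated region, 3′ untranslated region, intron, intergenic. Products and sequences came from RefSeq. Genes were named as the nearest gene of the 25 strongest members, up to 4 strongest of each list, those with 2 members, those at the rank limit, the 5 members of the thresholded list where either replicate ranked most ahead, and F57A8.1 and unc-119; genes printed for their sequence were chosen after values were seen. With 1 group and no second condition no test was made; shares carry 95% Wilson intervals, which cover counting error only. Python 3.11.15 with pandas 2.3.3, NumPy 2.4.6, SciPy 1.17.1 and Matplotlib 3.10.9 was used, and the assignment and counting steps were tested on simulated data. Alternatives were other rank and distance limits, any transcript's 5′ end, each replicate's own list, other windows and matching distances, and the stronger part of the thresholded list.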

Additional observations from a re-analysis of the deposited data

How the results depend on the processing

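Of 71 alternative values for 8 results, 41 stayed within the interval, the replicate spread or 1.5 times of the reported value and 30 did not. With ranks 1 to 1500 there were 316 regions, 81.6% with both replicates, 51.9% upstream, 18% thresholded, 1.79% of genes, 115 called 6-base sequences and 26.6% of ribosomal protein genes. With ranks 1 to 6000 there were 1129 regions, 60.9% with both replicates, 5.05% thresholded, 6.36% of genes and 19 sequences. A 5′ end within 250 bp gave 330 regions, 49.4% upstream, 1.91% of genes and 10.1% of ribosomal protein genes. Within 1000 bp there were 951 regions, 5.30% of genes and 44 sequences. Any transcript's 5′ end gave 4.02% of genes. Both replicates had a summit within 50 bp at 45.7%, within 200 bp at 87%, and among each replicate's 3000 strongest at 17.4%. Windows of 25 bp either side gave 3 sequences, and the stronger 147 of the thresholded list held 1.85% of regions.

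With each replicate's own list the number of regions was 592 to 597, the share with both replicates 40.9 to 42.1% (a replicate always has its own summit there), upstream 43.7 to 48.8%, thresholded 7.87 to 8.78%, GC content 43.3 to 45%, called sequences 23 to 66, genes 3.37% in both and ribosomal protein genes 34.2 to 38.0%. Replicate 1's own list gave the 23 sequences, under the reported 69 by more than 1.5 times; the cause was not tested. No paired analysis was possible because there is 1 group and no comparison between groups. Read depth, which could limit the signal of either replicate, is unknown.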

Other observations

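On chromosome IV 4 neighbouring histone genes each had a region, at summits 7486025 (his-61, histone H2A), 7486752 (his-62, H2B), 7487769 (his-60, H4) and 7488455 (his-59, H3). Their pooled signals were 56.7, 74.6, 59.1 and 101, and each summit was downstream in a coding exon. Replicate 1 had 31.2, 32.8, 42.6 and 33.1 in that order, and replicate 2 had 17, 56.4, no summit within 100 bp and 53.4. Histone genes have near-identical copies, and how reads were placed among them is not given in the sources used here. These genes were named after their values were seen.

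The genes for both partners of the mitochondrial chaperonin had regions close together on chromosome III. The summit 224 bp upstream of Y22D7AL.10, the 10 kDa partner, was at 1619153 with pooled signal 138, and the summit 359 bp downstream of the 5′ end of hsp-60 was at 1620101 with 52.9. The first summit was assigned to the nearest 5′ end, so it need not concern Y22D7AL.10 alone. At hsp-60 signal was 17.8 in replicate 1 and 36.1 in replicate 2.

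Of 12 genes with 2 regions, 8 had 1 summit upstream and 1 downstream, and 5 of the 12 encode ribosomal proteins. Apart from those named in the report they were R107.5, kin-14, lec-6 and sms-3.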
